A study of Sus scrofa with 10 samples.

Results

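Of the 43499 loci in the table of porcine ovary RNA, 8580 (19.7%) carried no annotation and no strand, and these strandless loci are described here. They were found by 2 columns of the deposited table, the transcript type (NA) and the strand (a dot), with no use of any expression value. They made up 41.8% of the 20536 unannotated loci, the other 11956 of which had a strand, and no annotated locus lacked one. The RNA came from ovaries of 10 gilts (young female pigs) killed at 234 days of age, with 1 library per pig and 5 pigs per group. Every pig had received oral altrenogest, a synthetic progestin used to synchronise oestrus (20 mg daily over 18 days, beginning at an age of 210 days). At 2 days after the last dose, the rpFSH treatment group was given 1000 IU of recombinant pig follicle-stimulating hormone and the control group was given saline. Surface follicles had been removed, so the values describe the remaining ovary as a whole, and pig numbers name separate animals in each group.

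StringTie, which built the loci, joins overlapping reads into transcript models. A read that crosses an intron shows its strand by the splice site letters, whereas a model made of unspliced reads in a library without strand information has nothing to orient it and is written with a dot. The methods of the study describe a stranded kit. Of the stranded unannotated loci with 1 transcript and at least 50 counts in a pig, between 54.7 and 55.0% held no intron either. Why the strandless loci lack a strand was not tested. Such models can come from many sources, among them single-exon noncoding RNAs, extended 3′ ends of genes, retained introns of pre-mRNA and transcribed repeats. The table alone does not separate these sources.

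Primers of the study's qRT-PCR exist for 3 of the strandless loci. For the lncRNAs it measured by qRT-PCR, the paper reports relative fold changes that matched those of its RNA-seq. They are shown because they are the only sequences of members at hand, 5′ to 3′ and in lower case throughout, with nothing capitalised because no motif was searched. They name no transcribed strand, since a primer pair amplifies a product of either orientation.
MSTRG.29090 forward: aacctcaaattggttgcgcc
MSTRG.29090 reverse: cgtggaccaattgttttggagt
MSTRG.33729 forward: aacaagcactctaggtccgc
MSTRG.33729 reverse: gaacaggccggatcctcaaa
MSTRG.33864 forward: tgtggcccatgaggtgtaac
MSTRG.33864 reverse: acccaaatacacaggggtcg

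Total counts were between 64873797 and 75114003 per pig, so that 3 counts, taken as the floor, came to between 0.0399 and 0.0462 CPM, for counting error only. Ovarian genes were read in every pig, with CYP11A1, the first enzyme of steroid synthesis, between 4.85 and 1758 FPKM (a read density normalised for transcript length and library size), the receptor gene FSHR between 0.375 and 7.02 and the oocyte gene GDF9 between 2.36 and 4.92. Each pig had a count of 0 at between 320 and 445 strandless loci, and 7174 of them (83.6%) had a count above 0 in all 10 pigs.

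The strandless loci were short, single-exon and low in level. Every one of the 8580 had exactly 1 transcript. Spans ran from 200 to 82540 bases with a median of 664, and 5363 loci (62.5%) were shorter than 1000 bases. The length by which FPKM had been divided, taken from the ratio of count to FPKM, lay within 5% of the span in 100% of the strandless loci with at least 50 counts in a pig. These models therefore held no intron. The same was true of between 54.7 and 55.0% of the stranded unannotated loci with 1 transcript, whose median span over all such loci was 7447 bases. Mean FPKM over 10 pigs lay between 0.170 and 587, with quartiles of 0.754 and 1.41 around a median of 1.08. Only 462 strandless loci reached a mean of 2 FPKM and 8 reached 10, against 1342 of the 19972 protein-coding loci at 10.

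**Figure D1:**
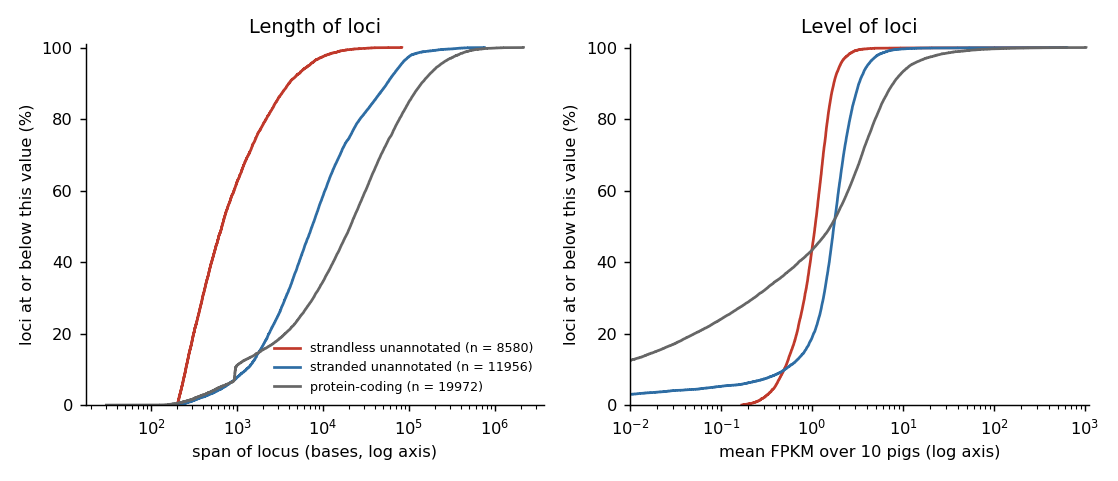
Cumulative share of loci (%) by span in bases (left) and by mean FPKM over 10 pigs (right), both on log axes, for strandless unannotated, stranded unannotated and protein-coding loci. The strandless curve lies to the left in span and rises within a narrow band of level, with a median span of 664 bases and a median of 1.08 FPKM.

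Within each pig, the strandless loci were lower than the stranded unannotated loci. The median FPKM over loci above the table's lowest value (0.0001) was 1.08 ± 0.0723 for strandless and 1.80 ± 0.121 for stranded loci (SD, n = 10 pigs). The difference in median log2 FPKM was -0.74 ± 0.0745 and had the same sign in 10 of 10 pigs, and an exact permutation test that flipped signs within pigs (two-sided) gave p = 0.00195, its lowest possible value at this n. Both medians were taken over the same catalogue of loci in every pig. This p therefore measures how the difference repeats over libraries, and it says nothing of loci beyond this catalogue. An assembler needs a minimum of reads per base to write a model, and how such a limit acted on either class was not tested. Pigs also varied more at strandless loci. Among loci with a mean count of at least 100, the within-group coefficient of variation of FPKM had a median of 35.3% over 3146 strandless loci, 28.3% over 10025 stranded unannotated loci and 27.5% over 12661 protein-coding loci. The median counts behind these loci were 231.9, 704.9 and 1600.2, so that fewer reads stood behind the strandless values.

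The strandless loci lay wholly inside a protein-coding locus or wholly outside all of them. By chromosome, start and end, 4212 (49.1%) were inside 1 of 1843 protein-coding loci, 4368 (50.9%) were outside, and 0 crossed a boundary. Of the stranded unannotated loci, 78.0% were inside, 8.86% crossed a boundary and 13.1% were outside. Because strandless models carry no orientation, those inside a gene cannot be called sense or antisense, and reads of the locus and of its host cannot be told apart by strand. The locus table gives no exon positions, so exonic and intronic placement is not known. Of the inside loci, 138 overlapped more than 1 protein-coding locus. Levels were higher inside, with a median mean FPKM of 1.23 against 0.935 outside, and 90.5% of the inside loci but 76.9% of the outside loci had a count in every pig.

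Hosts were long genes. Their median span was 73.5 kb, against 20.7 kb for all protein-coding loci. While 1030 hosts held 1 strandless locus, 41 hosts held 10 or more, with 591 loci in all. NAALADL2, which codes for a peptidase-like protein, held 37 of them within 1268 kb on chromosome 13 (112939700 to 114208075). MAGI2, a scaffold protein of cell junctions, held 30, SMYD3, a lysine methyltransferase, held 24 and SYT1, the calcium sensor of vesicle release, held 22. In NAALADL2 the loci had mean levels between 0.529 and 2.16 FPKM, below the 3.26 FPKM of the host itself. In SYT1 they lay between 0.639 and 1.56 FPKM around a host level of 1.02.

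Strandless loci lay inside few of the listed ovarian genes, as they did inside few genes at all, since 1843 of the 19972 protein-coding loci (9.23%) held any. Of the 20 listed steroidogenic and gonadotropin genes, 18 were in the table and only CYP19A1, the aromatase gene, held a strandless locus (1 locus). Among 16 genes of ciliated oviduct-type epithelium, 13 were found and only TEKT1, which codes for a protein of the axoneme, held 1. Of 11 immune genes, only CSF1R held any, with 2 loci, and of 6 endothelial genes only FLT1, a VEGF receptor, held any, also with 2. No strandless locus lay inside the 13 extracellular matrix and stroma genes found of 14, the 5 smooth muscle genes or the 6 oocyte genes. None of the 4 loci tested in CSF1R and FLT1 was called between the groups. The locus of highest level in FLT1, MSTRG.4836 on chromosome 11 (5691763 to 5693301), had 2.83 ± 1.68 FPKM in control and 3.15 ± 1.30 in rpFSH pigs (SD, n = 5 each), and it followed its host over the 10 pigs (r = 0.90). In CSF1R, MSTRG.19948 on chromosome 2 (151108523 to 151108797) had 1.33 ± 0.538 and 1.40 ± 0.420 FPKM. In CYP19A1, MSTRG.1458 on chromosome 1 (120510315 to 120510606) had between 0 and 45 counts per pig and was too low to be tested.

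Outside genes, strandless loci close to a gene lay mostly beyond its 3′ end. The gap to the nearest protein-coding locus had a median of 25.6 kb for the 4368 outside loci, with quartiles of 4856 and 118686 bases. Of the 417 loci within 1000 bases of the gene, 296 (71.0%) were on its 3′ side. The share was 63.6% of 687 loci at 1 to 5 kb, 54.0% of 443 loci at 5 to 10 kb and 35.7% of 1229 loci at 100 kb or more. For stranded unannotated loci, 58.7% of the 395 nearest ones were on the 3′ side. Levels were also lower with distance, from a median of 1.24 FPKM within 1000 bases to 0.803 FPKM at 100 kb or more. RefSeq genes of the same build covered many of these loci. At least 1 base of a RefSeq protein-coding gene lay under 1276 (29.2%) of the outside loci and a RefSeq lncRNA under 744 (17.0%), while 2365 (54.1%) met no RefSeq gene. These are overlaps of whole gene spans, introns included.

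**Figure D2:**
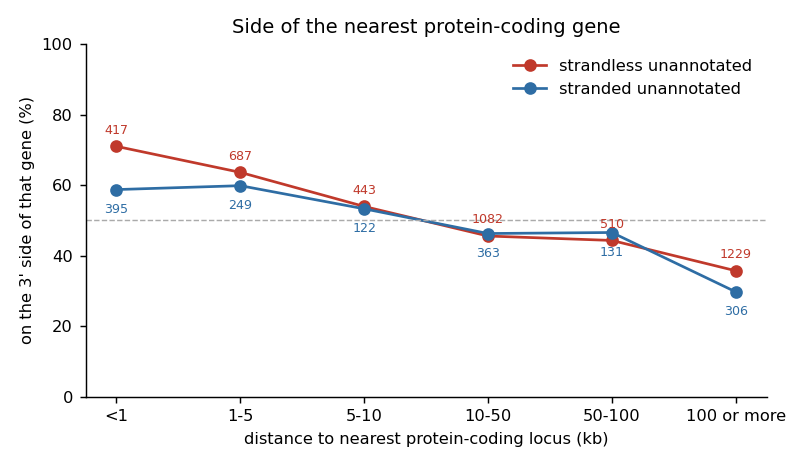
Share (%) of loci outside genes that lay on the 3′ side of the nearest protein-coding locus, by the distance to it in kb, with the number of loci beside each point. For strandless loci the share went from 71.0% within 1 kb to 35.7% at 100 kb or more, and the dashed line marks 50%.

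Levels of strandless loci varied over pigs together with those of their neighbours. For pairs of neighbouring strandless loci less than 1000 bases apart, Pearson's r of log2(FPKM + 1) over 10 pigs had a median of 0.69 (658 pairs), with quartiles of 0.36 and 0.91. The median r was 0.63 at 1 to 5 kb (1423 pairs), 0.47 at 10 to 50 kb (1817 pairs) and 0.04 at 100 kb or more (3186 pairs). Stranded unannotated neighbours with a mean of at least 0.1 FPKM had the same pattern. Their median r was 0.75 under 1000 bases, 0.69 at 1 to 5 kb, 0.55 at 10 to 50 kb and 0.11 at 100 kb or more. Strandless neighbours under 1000 bases apart also differed in level by a median of only 1.17-fold. The smallest gap between any pair was 250 bases. With their protein-coding hosts, inside loci had a median r of 0.46 (4164 pairs), and outside loci had 0.33 with the nearest gene (3962 pairs). The stranded unannotated loci had 0.57 inside and 0.43 outside. All of these values share libraries and are given as a description.

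A few neighbouring loci were read almost only in 1 pig. The limits used here, at least 50 counts in a pig that held at least 90% of all counts, were chosen after the values were seen. They were met by 42 strandless loci (0.490%), 151 stranded unannotated loci (1.26%) and 24 protein-coding loci (0.120%). Control pig 2 was the pig in 23 of the 42. On chromosome 2 (123600288 to 123914572), 14 neighbouring strandless loci over 314 kb held 14036 counts in control pig 2, and between 31 and 145 counts in each of the other 9 pigs. All strandless loci of that window were among the 14. The 6 stranded unannotated loci within it held 8382 counts in control pig 2 and 231 in the other 9 together, and no protein-coding locus lay in it. The protein-coding loci on either side were ENSSSCG00000039450, at 11048 bases, and PRR16, at 283671 bases. Loci were joined over gaps of at most 100000 bases, and loci led by control pig 2 lay beyond this limit as well. At 124023664 to 124054188, 3 loci held 2154 counts in control pig 2 and at most 16 in any other pig. Single loci of this kind lay at 123491316 to 123492271 and at 124196328 to 124196942. The 2 longest loci of the 314 kb window, MSTRG.19442 (22758 bases) and MSTRG.19445 (23684 bases), had 4625 and 4796 counts in control pig 2.

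Such stretches were found in other pigs as well. On chromosome 5 (43235052 to 43329936), 4 strandless loci held 6463 counts in rpFSH pig 4 and between 0 and 14 in each other pig. They lay within the annotated lincRNA ENSSSCG00000031192 (43223310 to 43352875), which itself had 1079 counts in rpFSH pig 4, 4 in control pig 4 and 0 in the other 8. On chromosome 7 (58811507 to 58817927), 2 loci starting 924 bases from CYP1A1, a cytochrome P450 gene, had 1251 counts in control pig 5 and at most 19 in any other pig. With 1 library per pig, a difference between animals and a difference between libraries cannot be told apart. Control pig 2 also had the highest summed FPKM of the 18 steroidogenic and gonadotropin genes found (2629, against 50.4 to 1703 in the other pigs), and control pig 5 the highest of the 5 smooth muscle genes (1789, against 65.3 to 484), and their part in these loci was not tested.

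**Figure D3:**
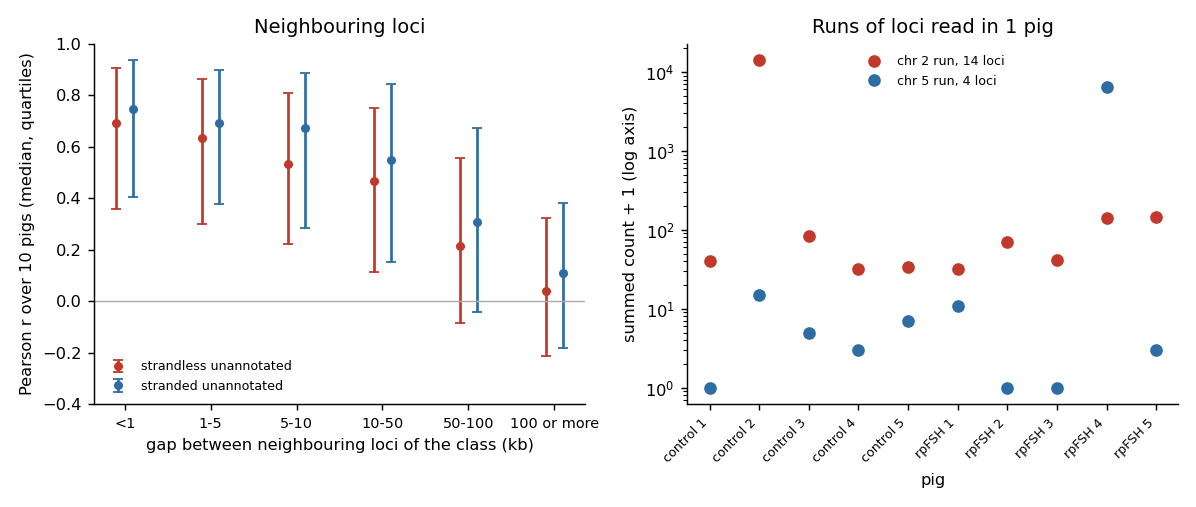
Left, Pearson's r over 10 pigs between neighbouring loci of a class, by the gap between them in kb (points are medians, bars are quartiles). Right, summed count + 1 per pig on a log axis over the 14 strandless loci of the chromosome 2 stretch and the 4 of the chromosome 5 stretch, each with 1 pig far above the rest at 14036 and 6463 counts.

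A further set of loci was on in some pigs and off in others. With at least 3 pigs at a count of 0 and at least 1 pig at 50 or more, limits also chosen after seeing the values, 305 strandless loci were found (3.55%, against 4.66% of stranded unannotated and 1.60% of protein-coding loci). Most of them, 241, lay outside every protein-coding locus. In 66 of the 305, control pigs 2 and 5 had the highest counts, and 34 of these 66 lay inside a protein-coding locus. The hosts included genes of the motile cilium (DAW1, CFAP45, CFAP61, CFAP77, DNAH11, TTLL9 and TEKT1, named after their values were seen) and genes of other functions, among them ABO, PLPPR1, SCNN1A, EYA2 and CRB2. Of these hosts, TEKT1 is the one in the ciliated epithelium list, and no enrichment was tested. MSTRG.14079 in DAW1 had 439 counts in control pig 2, 545 in control pig 5 and at most 4 in each other pig. MSTRG.6912 in TEKT1 had 67 and 168 counts in these pigs and at most 12 in the others. The 13 genes found of the 16 in the ciliated oviduct-type epithelium list had a summed FPKM of 63.7 in control pig 2 and 146.7 in control pig 5. In the other 8 pigs the sum was 5.12 to 12.3, and none of the genes was at 0 in all pigs. OVGP1 and EPCAM, which do not code for parts of the cilium, are in this list as well. OVGP1 reached 63.6 FPKM in its highest pig and FOXJ1 14.1, so the sum is not one of cilium genes alone. In bulk tissue, fewer cells of a type and less RNA per cell cannot be told apart, and the part of ciliated cells in these loci was not tested.

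The locus of highest mean level was steady over pigs. MSTRG.32759 lies on chromosome 8 (54237638 to 54238362), outside every protein-coding locus, 48912 bases from the nearest one and under no RefSeq gene. Its FPKM was 439.7, 581, 581, 678 and 801 in control pigs 1 to 5 and 536, 521, 566, 597 and 571 in rpFSH pigs 1 to 5. The groups overlapped, and the log2 fold change of -0.11 ± 0.16 (SE) was not called (edgeR quasi-likelihood test, adjusted p = 0.999).

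The next 5 loci by level lie on 5 chromosomes and shared a single profile over the pigs. MSTRG.10680 lies on chromosome 14 (30530530 to 30531237), 1161 bases beyond the 3′ end of the LRRC43 locus of the table and within the RefSeq span of LRRC43. Its FPKM was 2665, 937, 279.7, 239.6 and 293 in control pigs 1 to 5 and 789, 59.9, 52.3, 24.7 and 58.3 in rpFSH pigs 1 to 5. MSTRG.8454 had 2169, 715, 198, 140.7 and 209.6 FPKM in control pigs and 1192, 59.4, 43.2, 33.5 and 68.5 in rpFSH pigs. In both loci, control pig 1, rpFSH pig 1 and control pig 2 were highest, and the remaining control pigs were above the remaining rpFSH pigs.

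MSTRG.5300, 221 bases on chromosome 11 (48317416 to 48317636) under the RefSeq lncRNA LOC110255828, ranged from 89.4 to 764 FPKM in control and from 21.0 to 553 in rpFSH pigs. MSTRG.19385, on chromosome 2 (119570654 to 119570955), ranged from 37.3 to 510 and from 7.10 to 189.8, and MSTRG.37092, on chromosome Y (25272188 to 25273266) under the RefSeq lncRNA LOC110257911, from 15.6 to 140.0 and from 4.55 to 136.5. Among these 5 loci, the 10 pairwise r of log2(FPKM + 1) were between 0.89 and 0.99 over 10 pigs, while MSTRG.32759 had r between -0.35 and -0.26 with them. Of the 3140 other strandless loci with a mean count of at least 100, 1 had r over 0.9 with their mean profile. That locus, MSTRG.37091 on chromosome Y (25261408 to 25261976), had 94.7, 38.9 and 55.6 FPKM in control pigs 1 and 2 and rpFSH pig 1, and between 1.19 and 5.53 in the other 7.

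**Figure D4:**
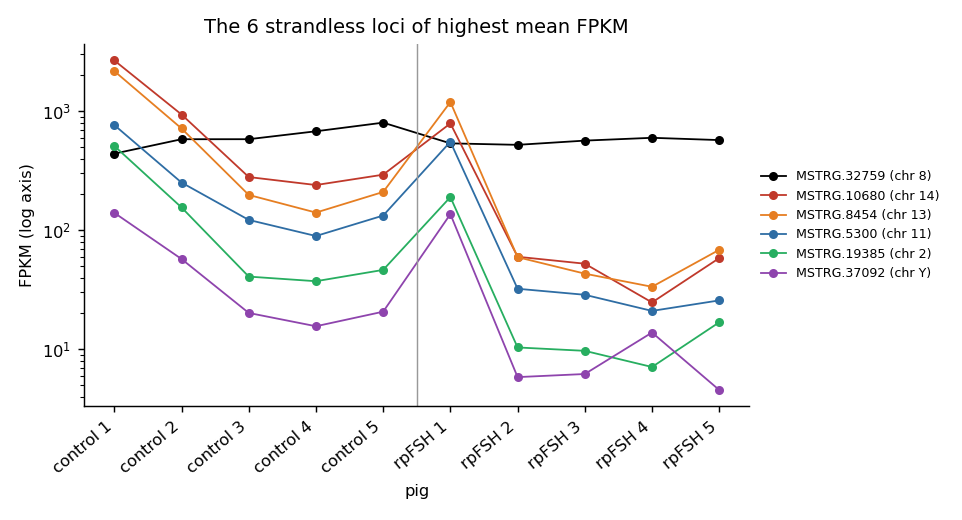
FPKM in each pig, on a log axis, of the 6 strandless loci of highest mean level, with lines joining the values of 1 locus and a vertical line between the groups. MSTRG.32759 stayed between 439.7 and 801 FPKM, while the other 5 were highest in control pigs 1 and 2 and rpFSH pig 1.

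None of the 5 was called between the groups by edgeR with all pigs, and this depended on the pigs and on the test. For MSTRG.10680 the log2 fold change was -2.10 ± 1.10 (SE) in edgeR (adjusted p = 0.994), and for MSTRG.8454 it was -1.23 ± 1.19 (adjusted p = 0.999). Without rpFSH pig 1 these became -4.16 and -3.73, those of MSTRG.5300, MSTRG.19385 and MSTRG.37092 became -3.31, -3.83 and -2.73, and all 5 were called. Without control pig 1 the values were nearer to 0, at -1.13 for MSTRG.10680 and -0.16 for MSTRG.8454, and none of the 5 was called. With all 10 pigs, DESeq2 called MSTRG.10680 (log2 fold change -2.10), limma called MSTRG.10680 (-2.17), MSTRG.5300 (-1.04) and MSTRG.19385 (-1.76), and edgeR with the replicate number as a block called all 5, with log2 fold changes from -2.71 for MSTRG.10680 to -1.44 for MSTRG.37092. Wherever limma is named, its P is from log2(FPKM + 1), while the log2 fold change is that of the group mean FPKM. The 6 loci of highest level together held between 2.48 and 17.9% of all strandless counts in a pig, with the most in control pig 1. RpFSH pig 1 also had the most counts at the 37 strandless loci of chromosome Y, with 53960 against 5199 to 24993 in the other pigs. All pigs were female, and 17 of these 37 loci had at least 10 counts in every pig. Whether these reads come from chromosome Y or from similar sequence elsewhere was not tested.

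The share of reads at strandless loci did not differ between the groups beyond the spread between pigs. As a percentage of all counts, it was 2.26% ± 0.10 in control pigs and 2.13% ± 0.126 after rpFSH (SD over 5 pigs). The exact permutation test, two-sided, gave p = 0.111, or 0.278 adjusted over 5 such tests. The shares were 2.41, 2.24, 2.18, 2.18 and 2.30% in control pigs 1 to 5 and 2.20, 2.00, 2.31, 2.05 and 2.08% in rpFSH pigs 1 to 5, and 3 of the 5 rpFSH pigs lay below every control pig. Without rpFSH pig 3 the difference of -0.137 percentage points became -0.183 (exact permutation p = 0.0476). Without the 6 loci of highest level, a choice made after their values were seen, it was -0.0445 (exact permutation p = 0.484). Inside loci held 1.15% ± 0.0492 and 1.11% ± 0.0662 (exact permutation p = 0.341), and outside loci 1.12% ± 0.0869 and 1.02% ± 0.0803 (exact permutation p = 0.0952). For the outside loci at 10000 bases or more from a gene, the difference was -0.00342 percentage points (exact permutation p = 0.937). For every 100 counts of their hosts, the inside loci had 23.1 ± 1.33 counts in control and 22.7 ± 1.35 in rpFSH pigs (exact permutation p = 0.595). The number of strandless loci at 0.1 FPKM or more was 7989 ± 31.5 and 7950 ± 75.6 (exact permutation p = 0.373). The smallest p this design allows is 0.00794.

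Single loci were compared between the groups by edgeR over all loci. Of the 8580 strandless loci, 7797 passed the count filter. DE was called where the log2 fold change lay above 1 or below -1 and the unadjusted P was under 0.05. By that rule 271 strandless loci (3.48%) were called, against 2.69% of all 34569 loci tested. Of these, 107 (1.37%) were upregulated, against 0.85% of all loci, and 164 (2.10%) were downregulated, against 1.84%. An unadjusted P under 0.05 was reached by 454 strandless loci (5.82%), against 5.02% of all loci. None had a Benjamini-Hochberg adjusted p under 0.05 in edgeR (0% of all loci as well, lowest 0.942), while DESeq2 gave 40 strandless loci such a value, 9 of them higher in the rpFSH treatment group, against 0.46% of all loci. By the limits of the call, DESeq2 gave 363 strandless loci (4.66%, against 3.36% of all loci). The limma P on log2 (FPKM + 1), joined to the log2 ratio of group mean FPKM, gave 305 (3.55%, against 1.92%). Groups did not overlap in FPKM at 80 of the 7797 loci (1.03%), against 0.764% of all loci tested. Calls were made at 174 of 3791 outside loci (4.59%) and at 97 of 4006 inside loci (2.42%). Of the 94 called inside loci whose host was tested, 30 had a host that was called as well, each in the direction of the locus. The calls depended on the pigs: without control pigs 2 and 5, 307 strandless loci were called, of which 110 were among the 271, and the split became 156 higher and 151 lower. Over all loci, 2.78% were called in that fit, 1.76% higher and 1.02% lower, so that the split moved towards higher calls among all loci as well.

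**Figure D5:**
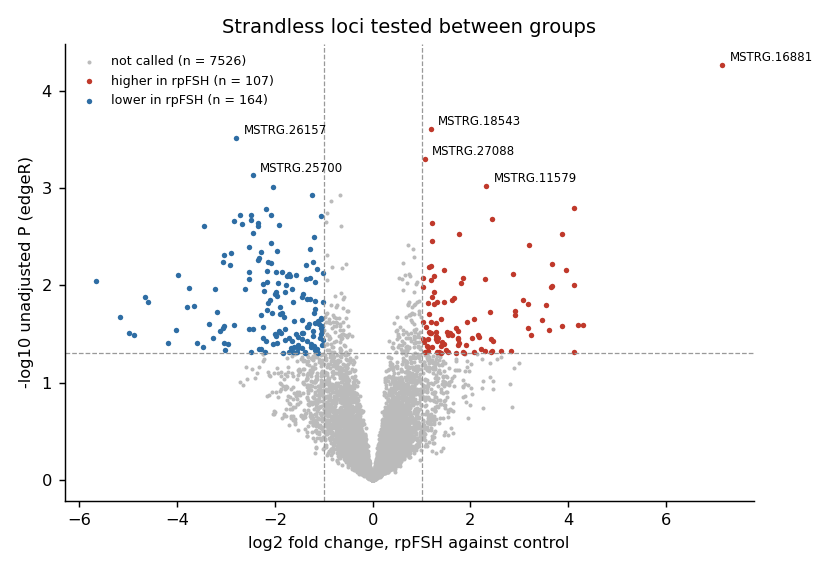
Log2 fold change of rpFSH against control (x) and -log10 of the unadjusted edgeR P (y) for the 7797 strandless loci tested, with dashed lines at the limits of the call. Red points are the 107 upregulated loci and blue points the 164 downregulated loci, and MSTRG.16881 stands furthest out at a log2 fold change of 7.15.

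The upregulated locus of smallest P was close to absent in control pigs. MSTRG.16881, 1373 bases on chromosome 18 (39329229 to 39330601) under the RefSeq lncRNA LOC110257625, had 0, 0, 0, 4 and 0 counts in control pigs 1 to 5 and 168, 69, 21, 109 and 269 in rpFSH pigs 1 to 5. Every rpFSH pig was above every control pig. The fitted log2 fold change was 7.15 ± 1.09 (SE) in edgeR, a size that rests on the 4 control counts, with an adjusted p of 0.942, while DESeq2's adjusted p was 4.08e-07. The edgeR adjusted p was 0.942 for all 14 loci named here as the smallest P in either direction. It was called without each pig in turn, with log2 fold changes from 6.69 to 9.98.

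The next upregulated loci changed less and lay inside genes that were not called themselves. MSTRG.18543 on chromosome 2 (70388978 to 70390150), inside ENSSSCG00000013717, had 1.05, 0.851, 0.978, 0.843 and 0.723 FPKM in control pigs and 2.00, 2.11, 1.87, 1.40 and 2.59 in rpFSH pigs, without overlap (log2 fold change 1.19 ± 0.22). MSTRG.27088 on chromosome 6 (42542631 to 42543140) lies inside ANKRD27, an effector of Rab GTPases, and had 1.69, 2.24, 2.47, 1.82 and 2.73 FPKM in control pigs and 4.28, 3.86, 5.28, 3.96 and 5.19 in rpFSH pigs. Again the groups did not overlap (log2 fold change 1.06 ± 0.21), although without control pig 1 or 4 the log2 change was 0.98 or 0.99, under the limit of 1. The hosts had log2 changes of 0.26 ± 0.15 and 0.14 ± 0.12. MSTRG.14474 on chromosome 16 (26318590 to 26319199), inside PLCXD3, which codes for a phospholipase C-like protein, went from 0.906 ± 0.356 to 2.05 ± 0.332 FPKM (SD, log2 fold change 1.21 ± 0.30).

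Other upregulated loci were low in count or had 1 pig far above the rest. MSTRG.11579 on chromosome 14 (73560569 to 73560843), inside ADAMTS14, a procollagen-processing protease gene, had between 2 and 12 counts in control and between 16 and 41 in rpFSH pigs (log2 fold change 2.32 ± 0.51). MSTRG.10466 on chromosome 14 (17533652 to 17534410) had between 4 and 13 and between 12 and 102 counts, and its groups overlapped. MSTRG.2749 on chromosome 1 (228482691 to 228493896), an 11206-base locus 145821 bases from the nearest gene, had 36, 23, 23, 26 and 43 counts in control pigs and 197, 114, 86, 125 and 2081 in rpFSH pigs. All rpFSH pigs were above all control pigs, with rpFSH pig 5 far above the rest. Its log2 fold change was 4.12 ± 0.97 with all pigs and 2.15 without rpFSH pig 5. By edgeR it was called in 10 of 10 fits with 1 pig left out, while limma did not call it.

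Among the downregulated loci, MSTRG.26157 had the smallest P. It lies on chromosome 5 (96103158 to 96105114), 75855 bases from the MGAT4C locus of the table, although the RefSeq span of MGAT4C, an N-acetylglucosaminyltransferase gene, covers it. Its FPKM was 0.965, 0.932, 0.578, 0.502 and 2.04 in control pigs 1 to 5 and 0.149, 0.108, 0.125, 0.0455 and 0.277 in rpFSH pigs 1 to 5, without overlap (log2 fold change -2.78 ± 0.53). MSTRG.25700 on chromosome 5 (67322142 to 67322442) lies 511 bases on the 5′ side of FKBP4, a co-chaperone of steroid receptors, and had 42, 39, 16, 24 and 14 counts in control pigs and 3, 3, 4, 7 and 7 in rpFSH pigs. The groups were apart at these low counts (log2 fold change -2.45 ± 0.52).

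Inside genes, the hosts of MSTRG.23172 and MSTRG.21992 were again not called. MSTRG.23172 on chromosome 4 (66315199 to 66315540), inside C8orf34, went from 1.47 ± 0.628 to 0.327 ± 0.127 FPKM (SD, log2 fold change -2.03 ± 0.45), and its host had a log2 change of -0.28 ± 0.29. MSTRG.21992 on chromosome 3 (101139430 to 101142092), inside SOS1, an activator of Ras, had 0.362, 0.648, 0.354, 0.546 and 1.74 FPKM in control pigs and 0.115, 0.281, 0.125, 0.154 and 0.0982 in rpFSH pigs. Control pig 5 stood above the others (log2 fold change -2.18 ± 0.52, and -1.58 without this pig). SOS1 itself had 4.89 ± 0.636 and 4.82 ± 0.279 FPKM, with a log2 change of 0.01 ± 0.12.

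Near genes, MSTRG.10055 on chromosome 13 (201162082 to 201162900), 2142 bases beyond the 3′ end of the kinase gene DYRK1A, went from 1.29 ± 0.348 to 0.531 ± 0.0880 FPKM (SD, log2 fold change -1.25 ± 0.28). MSTRG.30140 on chromosome 7 (19866220 to 19867344), 6434 bases beyond the 3′ end of CMAH, which makes a sialic acid, went from 2.25 ± 1.16 to 0.386 ± 0.320 FPKM (SD, log2 fold change -2.48 ± 0.60). Neither pair of groups overlapped.

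A neighbouring pair on chromosome 8 fell together. MSTRG.33726 (137403670 to 137412603) and MSTRG.33729 (137437768 to 137443027, the locus of a primer pair above) lie on the 3′ side of FGF5, at 117604 and 87180 bases, within the RefSeq span of C8H4orf22. MSTRG.33729 had 0.209, 1.22, 0.490, 0.277 and 2.04 FPKM in control pigs 1 to 5 and 0.187, 0.169, 0.0653, 0.0782 and 0.151 in rpFSH pigs 1 to 5. The groups did not overlap, and control pigs 2 and 5 were highest. The log2 fold changes were -2.72 ± 0.66 and -2.67 ± 0.67, and without control pigs 2 and 5 they were -1.20 and -1.24, both still called.

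In the deposited values, the other loci of the study's qRT-PCR or of its pairs of lncRNAs and mRNAs rested on few pigs. The qRT-PCR values, which the paper reports as matching its RNA-seq in fold change, were not examined here. MSTRG.29090 on chromosome 6 (126608028 to 126608689), 524329 bases from the nearest gene, had 1.16, 0.514, 0.551, 0.451 and 1.31 FPKM in control pigs and 25.3, 0.250, 1.48, 3.09 and 2.39 in rpFSH pigs. It was called with all pigs by edgeR (log2 fold change 3.07 ± 1.04) and DESeq2 (3.08), and in 9 of 10 edgeR fits with 1 pig left out. It was not called without rpFSH pig 1 (1.17), by limma (3.03) or with the replicate number as a block (1.73). MSTRG.8936 on chromosome 13 (106447271 to 106454531), inside WDR49, had 0, 915, 4, 18 and 1307 counts in control pigs and between 3 and 15 in rpFSH pigs. Control pigs 2 and 5 alone were high, and the log2 fold change of -5.65 ± 1.77 became 0.29 and was no longer called without them. With all pigs, DESeq2 called it (-5.69), while neither limma (-5.75) nor edgeR with the replicate block (-2.55) did. Its r with WDR49 was 1.00 over the 10 pigs. MSTRG.33864 on chromosome 9 (4995417 to 4998254) had 324, 0, 31, 589 and 10 counts in control pigs and between 0 and 26 in rpFSH pigs, and MSTRG.8685 on chromosome 13 (81954692 to 81957716) had 0, 250, 0, 10 and 789 and between 4 and 38. Both were too low in most pigs to pass the filter and were not tested.

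Of the 3 longest models, MSTRG.1358 was highest in 1 pig, MSTRG.9556 was high in 2 pigs and MSTRG.33526 stood out in none. MSTRG.1358, 82540 bases on chromosome 1 (114121595 to 114204134) and 15461 bases beyond the 3′ end of ALDH1A2, a gene of retinoic acid synthesis, had 0.375, 0.841, 0.308, 0.127 and 2.46 FPKM in control pigs and between 0.288 and 0.896 in rpFSH pigs. MSTRG.9556, 58166 bases on chromosome 13 (142539896 to 142598061), had 2.06 FPKM in control pig 2 and 3.33 in rpFSH pig 1, and between 0.0934 and 0.468 in the other 8. MSTRG.33526, 44404 bases on chromosome 8 (128063136 to 128107539) inside CCSER1, was at 1.38 ± 0.492 and 1.43 ± 0.526 FPKM and followed its host with r = 0.89. None of the 3 was called with all pigs.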

How the data were processed

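Ovary RNA of 10 gilts was sequenced, 1 library per pig. According to the methods, the authors used Cutadapt for trimming, Hisat2 and Bowtie2 for alignment against Sscrofa11.1 and StringTie for assembly. The submitters' processing notes name Bowtie 0.12.2, HISAT2 2.0 and StringTie 1.3.0. FPKM values were deposited as the authors estimated them with StringTie and Ballgown. Whole-number counts per locus were also deposited by the authors, and how these were made is not given in the sources used here. The methods describe rRNA removal and a stranded kit, whereas the labels name poly(A) selection.

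Positions are those of the table. A locus was inside a protein-coding locus when its whole span lay within it, and the shortest such locus was the host. RefSeq genes were taken as spans from assembly Sscrofa11.1. Groups were compared by edgeR 4.0.16 (quasi-likelihood, TMM, filterByExpr) over all 34569 loci kept, with P adjusted by the Benjamini-Hochberg method, and DESeq2 1.42.0 and limma 3.58.1 on log2 (FPKM + 1) were alternatives, in R 4.3.3. For limma, only P came from the fit, and the log2 fold change was the log2 ratio of the group means of FPKM. Ballgown's test was not used, since counts need a count test. For pig-level values, an exact permutation test (two-sided) used all 252 assignments. On simulated counts of this comparison over 34569 loci, edgeR called 59% of 100 loci changed by a log2 of 1, 88% of 100 changed by 2, and 2.18% of unchanged loci. An adjusted p under 0.05 was reached by only 4% and 40% of these changed loci. The changed loci were drawn from all classes above a limit of mean count, and strandless loci were not simulated apart. Since the median of the mean count was 62.5 for strandless and 491.9 for protein-coding loci, these shares are not those of strandless loci. Total counts per pig were between 64873797 and 75114003.

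The members, gene lists and limits were chosen with earlier results of these data known. Loci named are the 6 of highest mean FPKM (mean count of at least 100), up to 7 called in each direction with the smallest P, the 3 longest, those of the study's qRT-PCR and pairs, and the highest inside a gene of each list. Loci named outside this rule were chosen after their values were seen. Primer sequences are those of the study. Correlations use log2 (FPKM + 1). No locus sequence was read, since no genome was used here. Some positions and host genes are not reported here.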

Additional observations from a re-analysis of the deposited data

Results flagged for a closer look

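A value was looked at again where 1 of the 5 pigs of a group lay far from the other 4, by the ratio of its gap to the group's range. Of 74 groups of values checked, 19 held such a pig, and chance alone would give about 1 in 20, or 3.7 if the groups were independent. They are not, since many loci were chosen by their values and 9 of the 19 come from 5 loci with a shared profile, so 3.7 is no fair measure of chance.

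RpFSH pig 1 was such a pig in 7 of the named loci, with 789 FPKM at MSTRG.10680 (24.7 to 59.9 in the other 4), 1192 at MSTRG.8454, 553 at MSTRG.5300, 189.8 at MSTRG.19385, 136.5 at MSTRG.37092, 3.33 at MSTRG.9556 and 25.3 at MSTRG.29090 (0.250 to 3.09 in the other 4). Control pig 1 stood apart at 4 of the same loci, with 2665 FPKM at MSTRG.10680, 2169 at MSTRG.8454, 764 at MSTRG.5300 and 510 at MSTRG.19385. Control pig 2 had 2.06 FPKM at MSTRG.9556 and 5.77 at MSTRG.4836 in FLT1, where the other controls had between 1.62 and 2.47. Control pig 5 had 1.74 FPKM at MSTRG.21992 in SOS1, and control pig 4 had 0.0314 at MSTRG.16881, which is 4 counts where the other controls had 0. In the rpFSH treatment group, pig 5 had 2.26 FPKM at MSTRG.2749 (0.0991 to 0.204 in the others), pig 2 had 1.74 at MSTRG.1458 in CYP19A1 and pig 3 had 0.160 at MSTRG.8685. RpFSH pig 3 also had the fewest strandless loci at 0.1 FPKM or more, with 7819 against 7964 to 8003 in the other 4.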

How the results depend on the processing

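The number of calls, 271 in the main fit, stayed within 1.5 times of that under other scalings, tests and filters, from 210 to 387. The exception was a required mean count of at least 50, where 153 of 4882 strandless loci were called (3.13%, against 2.80% of all loci). The loci called changed more than their number. DESeq2 called 363, of which 247 were among the 271, and limma 305, of which 175 were. With 1 pig left out, calls numbered from 240 to 344 (3.08 to 4.41%, against 2.36 to 3.34% of all loci). Each of these fits kept between 61.3 and 78.6% of the 271. Over all loci tested, same-numbered pigs did not deviate together (r from -0.231 to 0.046). These r cannot exclude a link between same-numbered pigs at some of the loci. With the replicate number as a block, 210 were called, 145 of them among the 271 (2.69% of strandless loci tested, against 1.59% of all loci), and MSTRG.1358 had a log2 change of 0.024. Sign flips within 5 pairs cannot give a p under 0.0625, so the block says nothing of the pig-level tests.

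Level, share and number differences kept their direction under every alternative run. With 1 pig left out, the share difference was -0.183 to -0.0992 percentage points for all strandless loci (p from 0.0476 to 0.206, exact permutation), -0.0635 to -0.0208 for inside and -0.123 to -0.0687 for outside loci, the number difference -52.2 to -6.2 loci, the log2 host ratio difference -0.061 to -0.0057 and the level difference -0.75 to -0.73. The log2 host ratio difference of -0.03 became 0.0042 without the 10 strandless loci with most counts.

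Without control pigs 2 and 5, a choice made after seeing the data, log2 changes turned to 0.045 for MSTRG.32759, 1.00 for MSTRG.1358, -0.18 for MSTRG.33526 and 0.29 for MSTRG.8936. With 1 pig left out, those of uncalled loci ranged from -2.73 to 0.26 for MSTRG.37092, -0.92 to 0.32 for MSTRG.1358, -0.91 to 2.36 for MSTRG.9556, -0.11 to 0.26 for MSTRG.33526, -0.067 to 0.32 for MSTRG.19948 and -0.11 to 0.65 for MSTRG.4836. Loci with a mean count near 10 carry wide counting error.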
